A study of Homo sapiens with 16 samples.

Results

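The genes PHGDH, PSAT1, PSPH, SHMT2, MTHFD2, ALDH1L2, ASNS, CBS and CTH encode enzymes that make serine and asparagine, move one-carbon units through mitochondrial folate, and turn homocysteine into cysteine. They were taken by symbol from the deposited table of gene counts, where all 9 were found among 60612 genes. All 9 also passed the filter on low counts, which left 17950 tested genes. The cells were NCI-H1944, which derive from a human lung adenocarcinoma, and their RNA was sequenced in 8 groups of 2 libraries each, 16 in all. The study asked how a pulse of an MPS1 inhibitor changes expression when the nucleic acid sensing adaptors STING and MAVS are removed. MPS1, encoded by TTK, is a kinase of the spindle assembly checkpoint, and its inhibition makes chromosomes missegregate.

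There were 4 lines. The STING-labelled line carried a STING guide and is given as a STING knockout. The MAVS-labelled line carried a MAVS guide and is given as a MAVS knockout. The DKO-labelled line is given as a knockout of both genes, and SCR, the control, is given as wild type. Each line received MPS1i (BAY-1217389 at 100 nM for 48 h, then washed out and followed by 24 h of culture) or DMSO. All groups grew in RPMI medium with serum, penicillin-streptomycin and plasmocin. The RPMI medium itself supplies serine, glycine and asparagine. The labels do not say whether a line is 1 clone or a pool, or whether the 2 replicates came from separate cultures. The p-values therefore cover the spread among libraries, which may be technical.

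Serine is built from the glycolytic intermediate 3-phosphoglycerate. PHGDH oxidises it, PSAT1 transfers an amino group from glutamate, and PSPH removes the phosphate. In mitochondria SHMT2 splits serine into glycine and a one-carbon unit on tetrahydrofolate, MTHFD2 oxidises that unit, and ALDH1L2 can burn it to carbon dioxide while making NADPH. ASNS makes asparagine from aspartate and glutamine. CBS joins serine to homocysteine to give cystathionine, which CTH cleaves to cysteine. Many of these genes are known targets of ATF4, the transcription factor of the amino acid response, and their products feed nucleotide, glutathione and protein synthesis in dividing tumour cells.

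Total counts per library ran from 19893784 to 49769938. STING1, the gene that encodes STING, averaged 3.74 ± 0.0573 CPM in STING-labelled cells and 4.86 ± 0.0460 CPM in DKO-labelled cells under DMSO, against 8.27 ± 0.0317 CPM in SCR cells (CPM, counts scaled to a common library total; SD, n = 2). For MAVS mRNA the DMSO means were 195 ± 0.890 CPM in MAVS-labelled cells and 215 ± 9.83 CPM in DKO-labelled cells, against 186 ± 4.28 CPM in SCR cells, so the lines with a MAVS label were not below SCR. Since an edit need not lower the mRNA, this level does not check those labels. Of the lung epithelium markers, KRT8 had 30335 to 93073 counts per library, while NKX2-1, SFTPB and KRT19 had 0 to 4 counts. PTPRC, a marker of blood cells, had 0 to 5 counts and the T cell marker CD3E 0 to 1.

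The promoter table of RefSeq (GRCh38.p14) holds windows of 250 bases before and 50 after a gene start for 6 of the 9 genes, 9 windows in all. PSPH, SHMT2 and ALDH1L2 have none there. Since the 9 transcripts moved together, the windows were searched on both strands for 3 motifs. The core of the C/EBP-ATF response element, TGATGNAA, was found in 1 of the 9 windows, at base -68 of ASNS, and in 3.62% of all 35116 windows. The core of the antioxidant response element, TGACNNNGC, was found in 2 of the 9, at base 7 of MTHFD2 and base -83 of CBS, both on the opposite strand, and in 13.35% of all windows. The E-box CACGTG was in none of the 9 and in 7.26% of all. The lines below give 30 bases on each gene's strand with the matched letters in capitals, for ASNS at chr7:97872458-97872487 (minus), MTHFD2 at chr2:74198610-74198639 (plus) and CBS at chr21:43076442-43076471 (minus). For MTHFD2 and CBS the capitals are the reverse complement of the motif. The last line gives the 250 bases before the start of PSAT1, one of the 3 members with the largest falls in SCR cells, at chr9:78296875-78297124 (plus), where none of the 3 motifs was found.
ASNS: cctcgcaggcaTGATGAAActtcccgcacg
MTHFD2: cttccctcccgGCGCAGTCAccggcgcggt
CBS: cccggctctggGCGCGGTCAcgcggggcgc
PSAT1: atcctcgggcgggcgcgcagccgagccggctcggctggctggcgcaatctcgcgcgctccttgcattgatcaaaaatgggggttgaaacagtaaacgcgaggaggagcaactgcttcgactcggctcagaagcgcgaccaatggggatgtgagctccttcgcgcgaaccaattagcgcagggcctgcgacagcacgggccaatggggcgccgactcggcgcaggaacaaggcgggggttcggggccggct

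After the MPS1i pulse, transcripts of these enzymes fell in every line, most in SCR cells and least in DKO-labelled cells. All 9 fell in STING-labelled cells, where 13.9% of tested genes fell, with a median log2 fold change of -1.17 (median of all genes 0.00). All 9 fell in MAVS-labelled cells, where 16.3% fell, with a median of -1.62 (all genes 0.02). In DKO-labelled cells 8 of 9 fell, where 8.22% of genes fell, and the median was -0.70 (all genes 0.00). In SCR cells all 9 fell, where 24% of genes fell, with a median of -1.83 (all genes 0.03). The fall was at least 2-fold for 5 members in STING-labelled cells, 7 in MAVS-labelled cells, 0 in DKO-labelled and 8 in SCR cells. The share of all tested genes with a fall of that size was not counted. For each of the 9 members, both MPS1i libraries lay below both DMSO libraries in every line. The same held for 31.1% of all tested genes in STING-labelled cells, 31.9% in MAVS-labelled cells, 24.8% in DKO-labelled cells and 35.1% in SCR cells. In bulk RNA, fewer cells that express a gene and less RNA per cell cannot be told apart.

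**Figure D1:**
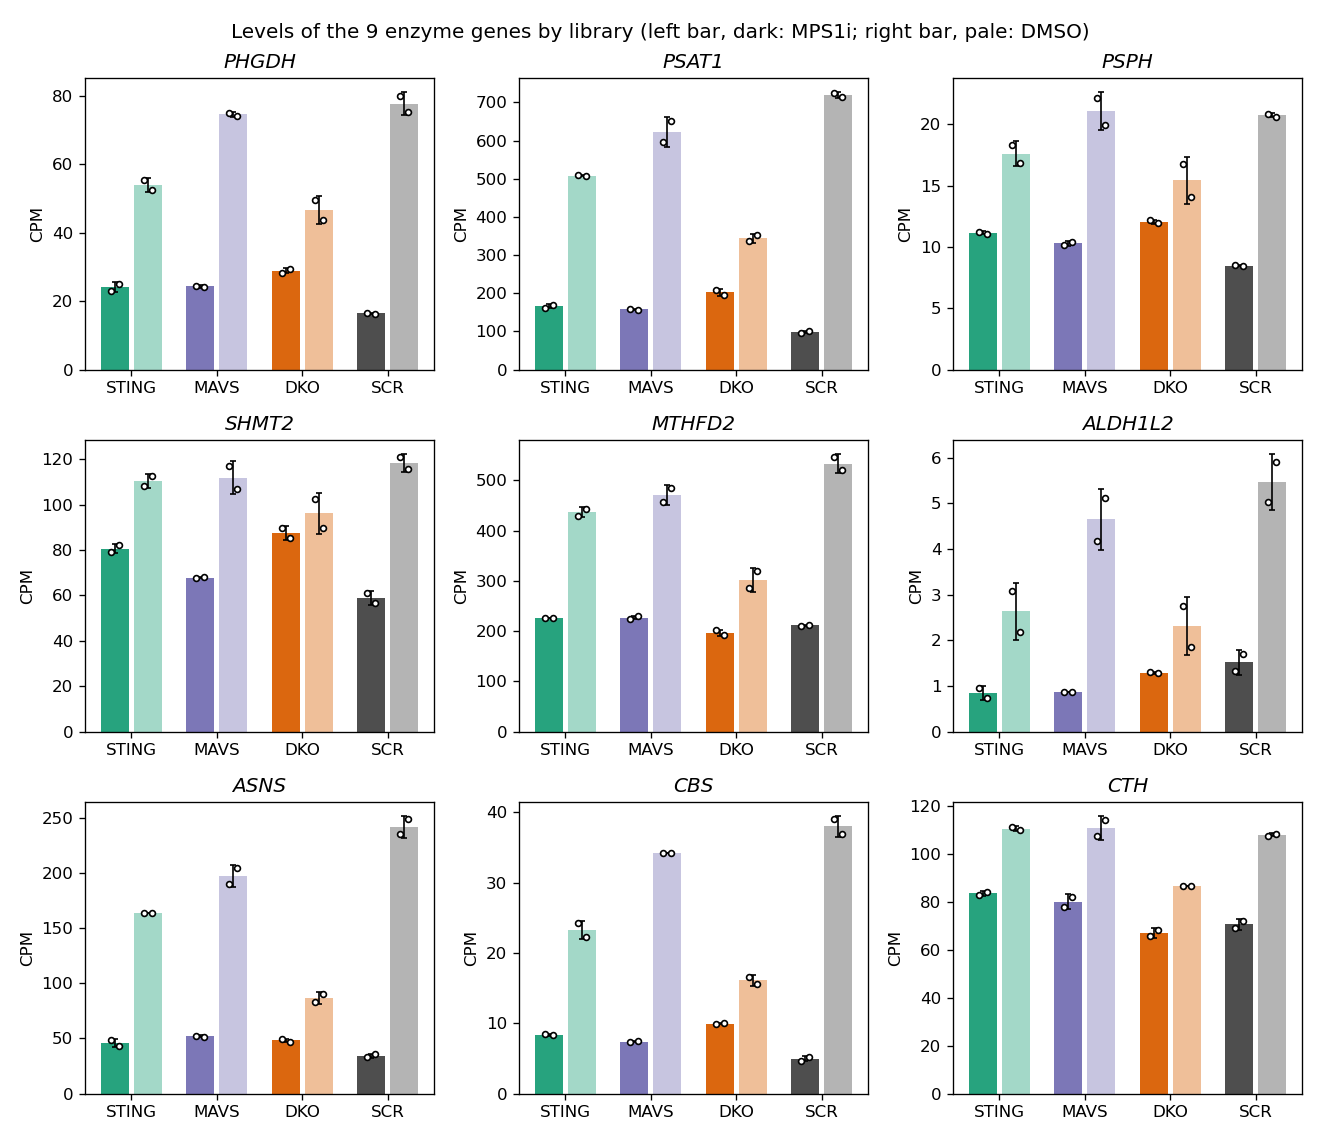
Levels of the 9 genes in CPM (counts scaled to a common library total), 1 panel per gene. Bars are means of 2 libraries, error bars are SD, circles are the libraries, and in each line the dark bar is MPS1i and the pale bar DMSO. The dark bars lie below the pale bars of the same line in every panel, and SCR has the tallest pale bar in 7 of 9 panels.

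Taken as a sum, the 9 transcripts made up 643 and 649 CPM in STING-labelled cells, 625 and 631 CPM in MAVS-labelled cells, 666 and 642 CPM in DKO-labelled and 501 and 508 CPM in SCR libraries after MPS1i. Under DMSO the sums were 1422 and 1430 CPM in STING-labelled cells, 1603 and 1695 CPM in MAVS-labelled cells, 979 and 1014 CPM in DKO-labelled and 1879 and 1846 CPM in SCR libraries. The sums of the lines were thus far apart under DMSO, with SCR at the top and DKO-labelled at the bottom. After MPS1i they were close together, with SCR at the bottom. PSAT1 and MTHFD2 made up most of each sum, with means of 720 and 533 CPM in SCR cells under DMSO. Taken singly, 6 of 9 members had a smaller ratio of the highest to the lowest line after MPS1i, a count not made for all tested genes.

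PHGDH (ENSG00000092621, chromosome 1, 119648411 to 119744218) encodes the first enzyme of serine synthesis. The MPS1i libraries held 23.0 and 25.1 CPM in STING-labelled cells, 24.6 and 24.1 CPM in MAVS-labelled cells, 28.3 and 29.3 CPM in DKO-labelled cells and 16.5 and 16.3 CPM in SCR cells. Under DMSO it stood at 55.5 and 52.5 CPM in STING-labelled cells, 75.1 and 74.1 CPM in MAVS-labelled cells, 49.6 and 43.8 CPM in DKO-labelled cells and 80.0 and 75.2 CPM in SCR cells. The MPS1i libraries of SCR were the lowest of all 16, and no MPS1i library reached a DMSO library. The log2 fold changes of MPS1i over DMSO were -1.17 ± 0.07 in STING-labelled cells, -1.62 ± 0.07 in MAVS-labelled cells, -0.70 ± 0.07 in DKO-labelled cells and -2.25 ± 0.07 in SCR cells, with adjusted p of at most 5.73e-08 (edgeR quasi-likelihood test). The value after ± beside a log2 fold change is its standard error. The fall was smaller than in SCR by 1.08 ± 0.10 in STING-labelled cells, 0.63 ± 0.10 in MAVS-labelled cells, and 1.55 ± 0.10 in DKO-labelled cells on the log2 scale, and all of these differences passed (largest adjusted p = 6.69e-05).

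PSAT1 (ENSG00000135069, chromosome 9, 78297125 to 78330093), the aminotransferase of the pathway, had the widest gaps between lines after MPS1i. Its level after MPS1i was 162 and 169 CPM in STING-labelled cells, 159 and 157 CPM in MAVS-labelled cells, 208 and 196 CPM in DKO-labelled cells and 96.6 and 100.2 CPM in SCR cells. Its DMSO level was 509 and 507 CPM in STING-labelled cells, 596 and 651 CPM in MAVS-labelled cells, 336 and 353 CPM in DKO-labelled cells and 724 and 715 CPM in SCR cells. Within each treatment the ranges of the 4 lines did not overlap, and their order after MPS1i placed SCR last, while under DMSO SCR was first. The log2 fold changes were -1.62 ± 0.05 in STING-labelled cells, -1.98 ± 0.05 in MAVS-labelled cells, -0.77 ± 0.05 in DKO-labelled cells and -2.87 ± 0.05 in SCR cells (largest adjusted p = 3.28e-11). In SCR cells this is a 7.31-fold fall. The difference between treatment effects, 2.10 ± 0.07 for DKO-labelled minus SCR cells (adjusted p = 4.11e-18), was above the 1.25 ± 0.07 of STING-labelled minus SCR and the 0.89 ± 0.07 of MAVS-labelled minus SCR.

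PSPH (ENSG00000146733, chromosome 7, 56011051 to 56051604), the phosphatase that ends the pathway, fell less than the other serine synthesis genes in each line. After MPS1i it had 11.2 and 11.1 CPM in STING-labelled cells, 10.2 and 10.4 CPM in MAVS-labelled cells, 12.2 and 11.9 CPM in DKO-labelled cells and 8.52 and 8.45 CPM in SCR cells. The DMSO libraries had 18.4 and 16.9 CPM in STING-labelled cells, 22.2 and 20.0 CPM in MAVS-labelled cells, 16.8 and 14.1 CPM in DKO-labelled cells and 20.9 and 20.6 CPM in SCR cells. The 2 DMSO replicates of DKO-labelled cells lay further apart than those of any other group. The log2 fold changes were -0.66 ± 0.10 in STING-labelled cells, -1.04 ± 0.09 in MAVS-labelled cells, -0.35 ± 0.10 in DKO-labelled cells and -1.29 ± 0.09 in SCR cells, and the DKO value (adjusted p = 0.0132) lost its call when any of 3 libraries was left out, namely DKO DMSO replicate 1 (-0.23), DKO MPS1i replicate 1 (-0.37) or DKO MPS1i replicate 2 (-0.34). The fall was smaller than in SCR in STING-labelled (0.63 ± 0.13, adjusted p = 0.00118) and DKO-labelled cells (0.94 ± 0.13, adjusted p = 3.58e-06), and the MAVS-labelled difference of 0.25 ± 0.13 did not pass (adjusted p = 0.313).

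SHMT2 (ENSG00000182199, chromosome 12, 57229573 to 57234935) encodes the mitochondrial enzyme that splits serine. The level after MPS1i was 79.2 and 82.0 CPM in STING-labelled cells, 67.7 and 67.9 CPM in MAVS-labelled cells, 89.6 and 85.3 CPM in DKO-labelled cells and 61.1 and 56.5 CPM in SCR cells. Under DMSO it was at 108 and 113 CPM in STING-labelled cells, 117 and 107 CPM in MAVS-labelled cells, 103 and 89.8 CPM in DKO-labelled cells and 121 and 115 CPM in SCR cells. The ranges of SCR, MAVS-labelled and STING-labelled libraries overlapped under DMSO, neighbour with neighbour, and all 4 lines were apart after MPS1i. MPS1i over DMSO gave log2 fold changes of -0.45 ± 0.06 in STING-labelled cells, -0.72 ± 0.06 in MAVS-labelled cells, -0.13 ± 0.06 in DKO-labelled cells and -1.01 ± 0.06 in SCR cells. The DKO value was the single treatment effect of the 9 genes in the 4 lines that did not pass (adjusted p = 0.163), and it passed at -0.23 (adjusted p = 0.0177) without DKO DMSO replicate 2. Against SCR the fall was smaller by 0.56 ± 0.09 in STING-labelled and 0.88 ± 0.09 in DKO-labelled cells (larger adjusted p = 3.64e-05). The MAVS-labelled difference of 0.29 ± 0.09 (adjusted p = 0.0424) lost its call without SCR DMSO replicate 1, SCR MPS1i replicate 2, MAVS DMSO replicate 2, either MAVS MPS1i replicate, any 1 of the 4 STING libraries or either DKO MPS1i replicate, with values of 0.22 to 0.29.

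MTHFD2 (ENSG00000065911, chromosome 2, 74186172 to 74217565), the mitochondrial methylene-tetrahydrofolate dehydrogenase, lay between 192 and 229 CPM in all libraries after MPS1i. Single libraries had 227 and 226 CPM in STING-labelled cells, 225 and 229 CPM in MAVS-labelled cells, 201 and 192 CPM in DKO-labelled cells and 209.9 and 212 CPM in SCR cells. Under DMSO it ranged more widely, at 429 and 443 CPM in STING-labelled cells, 457 and 485 CPM in MAVS-labelled cells, 286 and 319 CPM in DKO-labelled cells and 546 and 520.2 CPM in SCR cells. On the log2 scale the changes were -0.95 ± 0.05 in STING-labelled cells, -1.05 ± 0.05 in MAVS-labelled cells, -0.62 ± 0.05 in DKO-labelled cells and -1.34 ± 0.05 in SCR cells (largest adjusted p = 1.82e-09). DKO-labelled cells thus had the smallest fall together with the lowest level in both treatments. Against SCR the fall was smaller by 0.39 ± 0.07 in STING-labelled cells, 0.29 ± 0.07 in MAVS-labelled cells, and 0.72 ± 0.07 in DKO-labelled cells (largest adjusted p = 0.0102), the MAVS-labelled call being lost without SCR DMSO replicate 1 (0.25) or MAVS DMSO replicate 1 (0.24).

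ALDH1L2 (ENSG00000136010, chromosome 12, 105019784 to 105107643), the mitochondrial 10-formyltetrahydrofolate dehydrogenase, had the fewest counts of the 9 and the widest standard errors. Its raw counts after MPS1i were 25 and 21 in STING-labelled cells, 29 and 33 in MAVS-labelled cells, 45 and 27 in DKO-labelled and 47 and 75 in SCR libraries. Under DMSO they were 75 and 45 in STING-labelled cells, 116 and 101 in MAVS-labelled cells, 72 and 67 in DKO-labelled and 248 and 204 in SCR libraries. In CPM the levels after MPS1i were 0.953 and 0.727 CPM in STING-labelled cells, 0.864 and 0.866 CPM in MAVS-labelled cells, 1.31 and 1.28 CPM in DKO-labelled cells and 1.32 and 1.71 CPM in SCR cells. STING-labelled and MAVS-labelled cells, not SCR, were here the lowest lines. Under DMSO the levels were 3.08 and 2.19 CPM in STING-labelled cells, 4.18 and 5.12 CPM in MAVS-labelled cells, 2.75 and 1.86 CPM in DKO-labelled cells and 5.03 and 5.90 CPM in SCR cells. The log2 fold changes were -1.66 ± 0.27 in STING-labelled cells, -2.41 ± 0.24 in MAVS-labelled cells, -0.81 ± 0.25 in DKO-labelled cells and -1.83 ± 0.21 in SCR cells, so the fall was numerically largest in MAVS-labelled cells. The DKO value (adjusted p = 0.0281) lost its call without DKO DMSO replicate 1 (-0.53), DKO MPS1i replicate 1 (-0.83) or DKO MPS1i replicate 2 (-0.80). Differences from the SCR effect were 0.17 ± 0.36 in STING-labelled cells (adjusted p = 0.801) and -0.58 ± 0.32 in MAVS-labelled cells (adjusted p = 0.37), and neither passed. In DKO-labelled cells the difference of 1.02 ± 0.33 passed (adjusted p = 0.0211), but not without SCR DMSO replicate 2 (0.93), SCR MPS1i replicate 1 (0.89), DKO DMSO replicate 2 (0.76), DKO MPS1i replicate 1 (1.02) or DKO MPS1i replicate 2 (1.04).

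ASNS (ENSG00000070669, chromosome 7, 97851677 to 97872542) encodes asparagine synthetase, and a promoter window of this gene holds the C/EBP-ATF core shown above. No such core was found in the other promoter window of ASNS. Its MPS1i libraries had 48.5 and 43.0 CPM in STING-labelled cells, 52.5 and 51.3 CPM in MAVS-labelled cells, 49.1 and 47.1 CPM in DKO-labelled cells and 33.0 and 35.5 CPM in SCR cells. Under DMSO it stood at 163 and 163 CPM in STING-labelled cells, 190.3 and 204 CPM in MAVS-labelled cells, 82.5 and 90.7 CPM in DKO-labelled cells and 235 and 248 CPM in SCR cells. DKO-labelled cells were far below the other lines under DMSO, and their range overlapped that of STING-labelled cells after MPS1i. MPS1i over DMSO gave log2 fold changes of -1.84 ± 0.06 in STING-labelled cells, -1.93 ± 0.06 in MAVS-labelled cells, -0.85 ± 0.06 in DKO-labelled cells and -2.82 ± 0.06 in SCR cells (largest adjusted p = 3.27e-10). The fall was smaller than in SCR by 0.98 ± 0.09 in STING-labelled cells, 0.89 ± 0.09 in MAVS-labelled cells, and 1.97 ± 0.09 in DKO-labelled cells (largest adjusted p = 5.09e-08). The pseudogene ASNSP1 may share its reads. It had 2.20 ± 0.135 CPM after MPS1i and 11.6 ± 0.275 CPM under DMSO in SCR cells, and summing both genes changed no call.

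CBS (ENSG00000160200, chromosome 21, 43053191 to 43076943), the first enzyme of transsulfuration, had the largest fall of the 9 in SCR cells. After MPS1i it had 8.43 and 8.28 CPM in STING-labelled cells, 7.33 and 7.46 CPM in MAVS-labelled cells, 9.85 and 9.98 CPM in DKO-labelled cells and 4.67 and 5.22 CPM in SCR cells. The DMSO level was 24.2 and 22.3 CPM in STING-labelled cells, 34.2 and 34.2 CPM in MAVS-labelled cells, 16.6 and 15.6 CPM in DKO-labelled cells and 39.0 and 37.0 CPM in SCR cells. The lines did not overlap within either treatment. As log2 fold changes the MPS1i effects were -1.48 ± 0.09 in STING-labelled cells, -2.21 ± 0.08 in MAVS-labelled cells, -0.70 ± 0.09 in DKO-labelled cells and -2.94 ± 0.09 in SCR cells (largest adjusted p = 2.3e-06). In SCR cells it was the gene with rank 29 from the lowest among the 17950 tested, beside rank 31 for PSAT1 and 33 for ASNS. The fall was smaller than in SCR by 1.46 ± 0.13 in STING-labelled cells, 0.73 ± 0.12 in MAVS-labelled cells, and 2.24 ± 0.12 in DKO-labelled cells (largest adjusted p = 0.000208). CBSL, a near-identical copy listed beside it, had 0 to 28 counts per library, and summing both genes changed no call.

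CTH (ENSG00000116761, chromosome 1, 70411218 to 70439851), the enzyme after CBS, had the smallest fall of the 9 in STING-labelled, MAVS-labelled and SCR cells. Its MPS1i level was 83.0 and 84.4 CPM in STING-labelled cells, 77.9 and 82.3 CPM in MAVS-labelled cells, 65.7 and 68.5 CPM in DKO-labelled cells and 69.1 and 72.2 CPM in SCR cells. Under DMSO it was at 111 and 110.0 CPM in STING-labelled cells, 107 and 114 CPM in MAVS-labelled cells, 86.9 and 86.7 CPM in DKO-labelled cells and 108 and 109 CPM in SCR cells. DKO-labelled cells were the lowest line in both treatments, and under DMSO the range of the MAVS-labelled libraries covered those of the STING-labelled and SCR libraries. As log2 fold changes the effects were -0.40 ± 0.05 in STING-labelled cells, -0.47 ± 0.05 in MAVS-labelled cells, -0.37 ± 0.05 in DKO-labelled cells and -0.61 ± 0.05 in SCR cells (largest adjusted p = 9.95e-06). The fall was smaller than in SCR by 0.21 ± 0.07 in STING-labelled (adjusted p = 0.0391) and 0.24 ± 0.07 in DKO-labelled cells (adjusted p = 0.0128), and the MAVS-labelled difference of 0.15 ± 0.07 did not pass (adjusted p = 0.277). The STING-labelled call was lost, at 0.19 to 0.23, without any 1 of the 4 STING or the 4 SCR libraries, and the DKO-labelled call without DKO MPS1i replicate 2 (0.21).

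**Figure D2:**
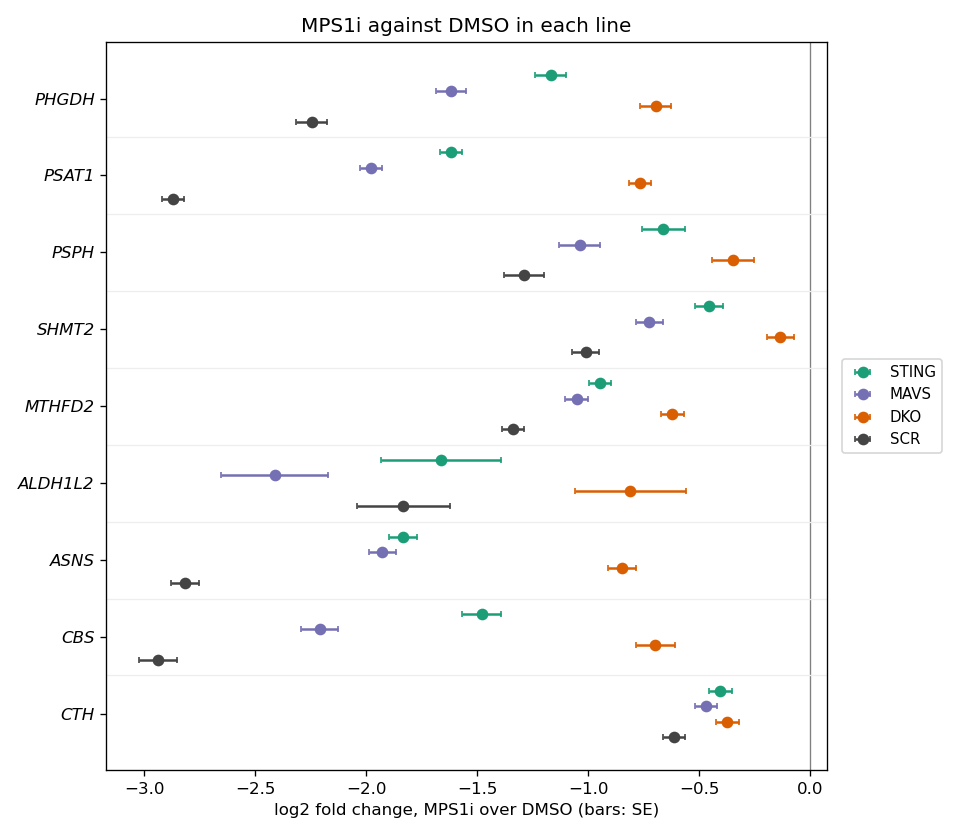
Log2 fold change of MPS1i over DMSO for each gene (rows) in each line (colours), with bars for the standard error of the edgeR fit. SCR lies furthest left for 8 of 9 genes and DKO furthest right for all 9, and SHMT2 in DKO, at -0.13, is nearest to 0.

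The test of the difference between effects thus passed, against SCR, for 8 of 9 members in STING-labelled cells (positive in 9.97% of all tested genes), 6 of 9 in MAVS-labelled cells (2.92%) and 9 of 9 in DKO-labelled cells (13.5%). In each of these the fall was smaller in the knockout-labelled line. These 3 comparisons share the SCR libraries. DKO-labelled cells were also set against each single line. Against STING-labelled cells the fall was smaller for 6 of 9 members (1.55% of all genes), with ASNS at 0.99 ± 0.09, PSAT1 at 0.85 ± 0.07, CBS at 0.78 ± 0.13, PHGDH at 0.47 ± 0.10, MTHFD2 at 0.33 ± 0.07 and SHMT2 at 0.32 ± 0.09. The SHMT2 call (adjusted p = 0.032) was lost, at 0.23 to 0.36, without any 1 of the 4 STING libraries, DKO DMSO replicate 2 or either DKO MPS1i replicate. Against MAVS-labelled cells it was smaller for 8 of 9 (4.97% of all genes), with ALDH1L2 at 1.60 ± 0.35, CBS at 1.51 ± 0.12 and PSAT1 at 1.21 ± 0.07. CTH, the exception, stood at 0.10 ± 0.07 (adjusted p = 0.485). These 2 comparisons share the DKO libraries.

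The lines also differed from SCR under DMSO. All 9 members were lower in DKO-labelled than in SCR cells, with a median of -0.82, where 15.3% of all tested genes were lower. ASNS was lowest at -1.48 ± 0.06, followed by ALDH1L2 at -1.26 ± 0.21, CBS at -1.24 ± 0.08, PSAT1 at -1.06 ± 0.05, MTHFD2 at -0.82 ± 0.05 and PHGDH at -0.74 ± 0.06. PSPH at -0.44 ± 0.09, CTH at -0.32 ± 0.05 and SHMT2 at -0.30 ± 0.06 differed least (adjusted p of at most 0.00037). The libraries of DKO-labelled and SCR cells did not overlap for any of the 9, as for 60.2% of all tested genes.

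STING-labelled cells under DMSO were lower than SCR for 6 of 9 members, where 5.47% of genes were lower. ALDH1L2 stood at -1.04 ± 0.21, CBS at -0.71 ± 0.08, ASNS at -0.57 ± 0.06, PHGDH at -0.52 ± 0.06, PSAT1 at -0.50 ± 0.05 and MTHFD2 at -0.29 ± 0.05. PSPH at -0.23 ± 0.09 (adjusted p = 0.0981), SHMT2 at -0.10 ± 0.06 and CTH at 0.03 ± 0.05 did not pass. The ALDH1L2 call was lost without STING DMSO replicate 2 (-0.81), and PSPH passed at -0.25 without either DKO DMSO replicate. The libraries did not overlap for any of the 9 members, as for 53.7% of all genes. MAVS-labelled cells differed least from SCR under DMSO, with 3 of 9 members lower where 2.57% of genes were lower. They were ASNS at -0.29 ± 0.06, PSAT1 at -0.21 ± 0.05 and MTHFD2 at -0.18 ± 0.05. All 3 calls were lost without MAVS DMSO replicate 1 (-0.24, -0.14 and -0.14), which left 0 of 9, and that of MTHFD2 also without SCR DMSO replicate 1 (-0.15). Here libraries did not overlap for 5 of 9 members and for 49.7% of all genes.

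After MPS1i most of the order was turned round. DKO-labelled cells were higher than SCR for 6 of 9 members, where 22.6% of genes were higher, with PSAT1 at 1.04 ± 0.05, CBS at 1.00 ± 0.10, PHGDH at 0.81 ± 0.07, SHMT2 at 0.58 ± 0.06, PSPH at 0.51 ± 0.10 and ASNS at 0.49 ± 0.07. MTHFD2 at -0.10 ± 0.05, ALDH1L2 at -0.24 ± 0.25 and CTH at -0.08 ± 0.05 did not pass (smallest adjusted p = 0.11). STING-labelled cells were higher than SCR for 7 members and lower for 1, where 15.8% of genes were higher and 17.3% lower. PSAT1 and CBS stood at 0.75 ± 0.05 and 0.75 ± 0.10. The lower member was ALDH1L2 at -0.86 ± 0.27 (adjusted p = 0.016), a call lost without SCR MPS1i replicate 2 (-0.66) or STING MPS1i replicate 2 (-0.67). MTHFD2 at 0.10 ± 0.05 (adjusted p = 0.137) passed without DKO DMSO replicate 1 (0.11) or 2 (0.10).

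MAVS-labelled cells after MPS1i were higher than SCR for 6 members and lower for 1, where 7.46% of genes were higher and 8.47% lower. PSAT1 stood at 0.68 ± 0.05, ASNS at 0.60 ± 0.06, CBS at 0.58 ± 0.10 and PHGDH at 0.57 ± 0.07. These 4 calls held without any 1 library. SHMT2 at 0.21 ± 0.06 lost its call without SCR MPS1i replicate 2 (0.15), MAVS MPS1i replicate 1 (0.21) or replicate 2 (0.20), CTH at 0.18 ± 0.05 without SCR MPS1i replicate 1 (0.15) or MAVS MPS1i replicate 2 (0.14). ALDH1L2 at -0.81 ± 0.26, the lower member, lost it without SCR MPS1i replicate 2 (-0.61), MAVS MPS1i replicate 1 (-0.81) or replicate 2 (-0.82). Leaving out MAVS MPS1i replicate 2 thus left 4 of 9 called. PSPH at 0.28 ± 0.10 (adjusted p = 0.0509) passed at 0.28 without either DKO DMSO replicate. Libraries of the knockout-labelled line and of SCR did not overlap after MPS1i for any of the 9 members in any of the 3 comparisons, as for 65.7% of all genes in STING-labelled cells, 56.9% in MAVS-labelled cells, and 72.6% in DKO-labelled cells. The 6 comparisons with SCR share its libraries within a treatment.

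**Figure D3:**
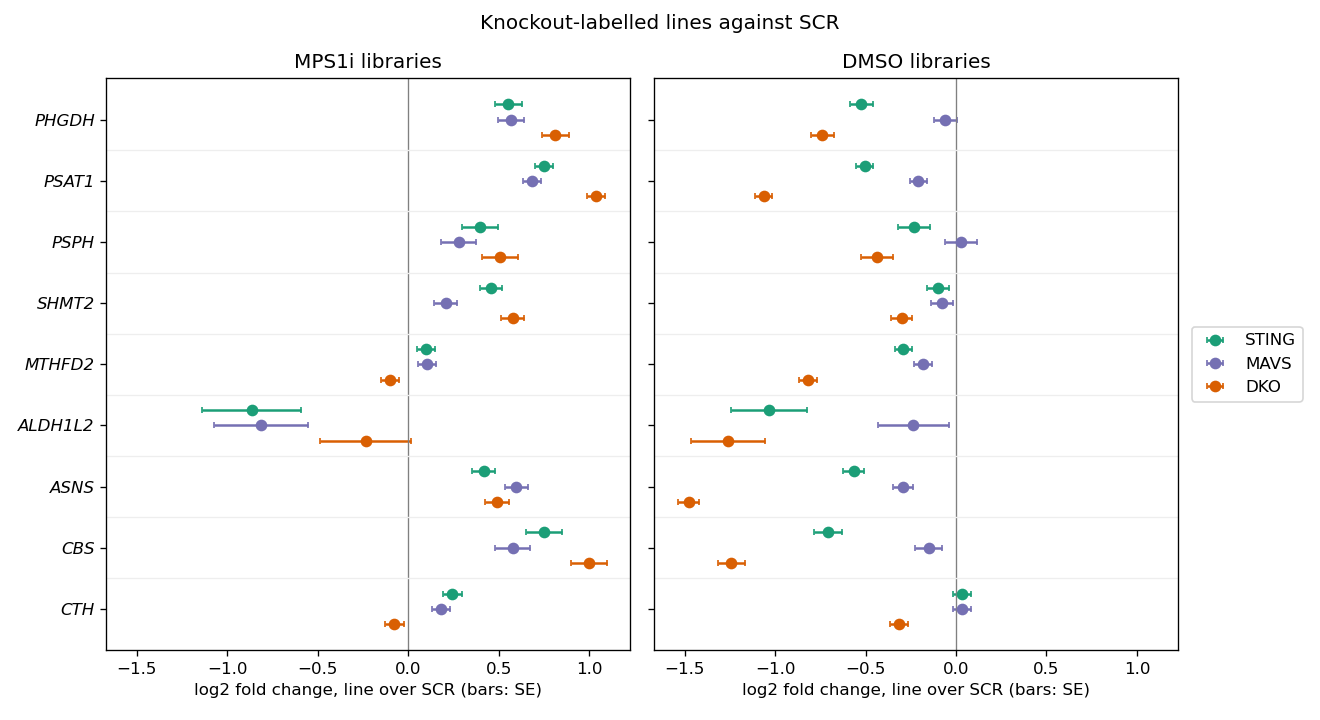
Log2 fold change of each knockout-labelled line over SCR for the 9 genes, with bars for the standard error, in MPS1i libraries (left panel) and DMSO libraries (right panel). Under DMSO all DKO points lie left of 0, between -1.48 and -0.30. After MPS1i most points lie right of 0, and ALDH1L2 lies left of 0 in all 3 lines.

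In mean level, DKO-labelled cells were the lowest line under DMSO for 9 of 9 members and SCR the highest for 7 of 9. After MPS1i, DKO-labelled cells were the highest for 5 and SCR the lowest for 6. The ratio of the highest to the lowest line ran from 1.15 to 2.05 after MPS1i and from 1.23 to 2.79 under DMSO, and it was smaller after MPS1i for 6 of 9 members. These orders and ratios were not counted over all tested genes, so they are not shown to be particular to the members. Over the 8 groups, the highest mean was 7.69 times the lowest for CBS, 7.31 times for PSAT1, 7.06 times for ASNS, 6.50 times for ALDH1L2 and 4.74 times for PHGDH. MTHFD2 at 2.71 times, PSPH at 2.48, SHMT2 at 2.01 and CTH at 1.65 had narrower ranges.

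Levels of different genes can be compared only roughly per length of merged exons (GENCODE v29). That length joins the exons of all annotated transcripts of a gene, such as 9217 bases for PHGDH and 2762 for PSPH. Which transcripts the cells express was not tested, so the order between genes depends on the annotation. In SCR cells after MPS1i, PSAT1 had 45.0, MTHFD2 43.3, CTH 29.3, SHMT2 12.2, ASNS 7.69, PSPH 3.07, PHGDH 1.78, CBS 0.728 and ALDH1L2 0.178 CPM per kilobase. Under DMSO PSAT1 had 329, MTHFD2 109.5, ASNS 54.2, CTH 44.8, SHMT2 24.4, PHGDH 8.42, PSPH 7.51, CBS 5.60 and ALDH1L2 0.642 CPM per kilobase. PSAT1 stood at the top in both treatments. After MPS1i it was close to MTHFD2, and CTH and SHMT2 had moved ahead of ASNS.

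Across the 8 group means of log2 CPM, the 9 members followed each other closely. Their pairwise Pearson r had a median of 0.939 and a minimum of 0.782, for ALDH1L2 with CTH, as a description over 8 groups that share libraries and a common treatment. PHGDH and PSPH (r = 0.996), PSAT1 and CBS (0.996), and MTHFD2 and ASNS (0.985) were each other's closest partner among the 9. This gives the best partner of a member and is not a ranking of all pairs. Outside the set, the genes most like the mean of the 9 standardised profiles, among 13874 candidates with a mean of at least 1 CPM, were GOT1 (0.998), SLC1A4 (0.998), PCK2 (0.998), SLC1A5 (0.993), TCF7L2 (0.993), RBMX (0.992), UBXN2B (0.991) and YARS1 (0.991). In all, 340 candidates had an r above 0.95.

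The other genes of the surrounding metabolism are described from lists, first amino acid supply. The counts stand against 6.53% of all tested genes that rose and 8.22% that fell in DKO-labelled cells, and 26% that rose and 24% that fell in SCR cells. None of 10 amino acid transporters rose in either DKO-labelled or SCR cells after MPS1i. In DKO-labelled cells 4 fell and the list's median was -0.20 (all genes 0.00), and in SCR cells 8 fell and the median was -1.06 (all genes 0.03). SLC1A4, a carrier of serine and alanine, stood at -0.66 ± 0.07 in DKO-labelled and -1.91 ± 0.07 in SCR cells, and SLC38A1, a glutamine carrier, at -0.29 ± 0.04 and -1.34 ± 0.04 in the same lines. SLC7A11, the cystine carrier that supplies cysteine from outside, stood at -0.22 ± 0.05 in DKO-labelled and -1.19 ± 0.05 in SCR cells. The effect in DKO-labelled minus that in SCR cells was higher for 7 of these 10 genes and lower for 1, SLC38A2 at -0.18 ± 0.06, named after its value was seen, while it was higher for 13.5% and lower for 14.5% of all tested genes. Of 16 aspartate, glutamine and proline enzymes 4 fell and 1 rose in DKO-labelled cells (median -0.04), against 11 and 2 in SCR cells (median -0.29). GOT1, the cytosolic aspartate aminotransferase, stood at -0.54 ± 0.06 in DKO-labelled and -1.84 ± 0.06 in SCR cells. BCAT1, a branched-chain aminotransferase, stood at -0.24 ± 0.05 and -1.73 ± 0.05 in these lines. GLUL, glutamine synthetase, went the other way and rose by 0.66 ± 0.05 in SCR cells.

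Of 20 cytosolic tRNA synthetases 9 fell and 1 rose in DKO-labelled cells (median -0.15), and 15 fell and 5 rose in SCR cells (median -0.69). GARS1, for glycine, stood at -0.47 ± 0.05 in DKO-labelled and -1.50 ± 0.05 in SCR cells, and IARS1, for isoleucine, at -0.22 ± 0.04 and -1.45 ± 0.04. WARS1, for tryptophan, which is also known as an interferon-induced gene, stood at -0.05 ± 0.05 in DKO-labelled cells and rose by 1.97 ± 0.04 in SCR cells. Of 17 mitochondrial synthetases 1 was lower and 0 higher in DKO-labelled cells (median 0.03), a share near that of all genes, and 7 were lower and 2 higher in SCR cells (median -0.13). LARS2, for leucine, stood at -0.03 ± 0.06 in DKO-labelled cells and rose by 0.59 ± 0.06 in SCR cells.

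Among 19 ATF4 regulators, stress kinases and further ATF4 targets, 9 fell and 1 rose in DKO-labelled cells (median -0.15), and 13 fell and 5 rose in SCR cells (median -0.53). ATF4 itself, named for its role and not by its values, had 389 and 396 CPM in DKO-labelled MPS1i libraries and 432 and 435 CPM in DKO-labelled DMSO libraries, a log2 fold change of -0.15 ± 0.05 that did not pass (adjusted p = 0.0706). In SCR cells it had 300.0 and 313.6 CPM after MPS1i and 494 and 432 CPM under DMSO, a log2 fold change of -0.59 ± 0.05. The list did not go 1 way, since the effect in DKO-labelled minus that in SCR cells was higher for 8 of the 19 genes and lower for 5. TRIB3, a pseudokinase that ATF4 induces, stood at -0.74 ± 0.07 in DKO-labelled and -1.71 ± 0.07 in SCR cells. EIF2AK2, the RNA-activated kinase PKR and itself an interferon-induced gene, stood at 0.08 ± 0.05 in DKO-labelled cells and rose by 1.30 ± 0.05 in SCR cells. PPP1R15A, a phosphatase subunit that reverses the phosphorylation of eIF2 alpha, stood at 0.07 ± 0.06 in DKO-labelled cells and rose by 1.58 ± 0.06 in SCR cells. A further 3 genes of this list are named after their values were seen. CHAC1, a glutathione-degrading enzyme that ATF4 induces, stood at -1.91 ± 0.16 in DKO-labelled and -0.96 ± 0.14 in SCR cells, and DDIT3, the stress factor CHOP, at -1.02 ± 0.10 and -0.55 ± 0.09 in these lines. Both thus fell more in DKO-labelled cells, with differences of -0.95 ± 0.21 for CHAC1 and -0.48 ± 0.14 for DDIT3 (larger adjusted p = 0.0099). ATF3, a stress-induced transcription factor, stood at 0.06 ± 0.10 in DKO-labelled cells and rose by 1.54 ± 0.08 in SCR cells.

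The neighbouring folate and sulfur enzymes went in both directions. Of 19 other folate genes 17 could be tested, and 5 fell and 2 rose in DKO-labelled cells (median 0.02), against 7 and 2 in SCR cells (median -0.17). SHMT1, the cytosolic counterpart of SHMT2, stood at -0.60 ± 0.07 in DKO-labelled and -0.75 ± 0.07 in SCR cells, effects whose difference did not pass (adjusted p = 0.279). MTHFD2L, the paralog of MTHFD2, rose in both, by 0.44 ± 0.08 in DKO-labelled and 0.53 ± 0.08 in SCR cells. Of 5 genes of glycine cleavage and threonine breakdown 1 rose and 0 fell in DKO-labelled cells (median -0.13), against 1 and 3 in SCR cells (median -0.74). GCAT, named for its pathway and not by its values, is the gene of threonine breakdown and stood at -0.80 ± 0.25 in SCR cells. The riser in SCR cells was GLDC, glycine decarboxylase, by 0.61 ± 0.06. Of 15 methionine cycle, sulfur and glutathione genes 13 could be tested, with 2 lower and 2 higher in DKO-labelled cells (median -0.04). In SCR cells 3 were lower and 4 higher (median -0.01), shares near the 24% and 26% of all tested genes. AHCY, which makes the homocysteine that CBS uses, fell by 0.67 ± 0.08 in SCR cells, while SQOR, a mitochondrial sulfide oxidase, rose by 1.10 ± 0.05.

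Purine synthesis and glycolysis are routes after and before these enzymes. Of 10 purine genes 1 rose and 0 fell in DKO-labelled cells (median 0.00), against 1 and 5 in SCR cells (median -0.14), where IMPDH2, an enzyme of guanine nucleotide synthesis, fell by 0.75 ± 0.05. Of 16 glycolysis genes 2 rose and 0 fell in DKO-labelled cells (median -0.02), against 4 and 5 in SCR cells (median -0.04). The shares in SCR cells were near those of all tested genes, of which 26% rose and 24% fell. HK2, a hexokinase, rose in SCR cells by 2.28 ± 0.18, and PGAM1, which consumes the 3-phosphoglycerate that PHGDH uses, by 0.83 ± 0.04. GPI, the isomerase of glucose 6-phosphate, fell by 0.50 ± 0.05 in SCR cells.

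**Figure D4:**
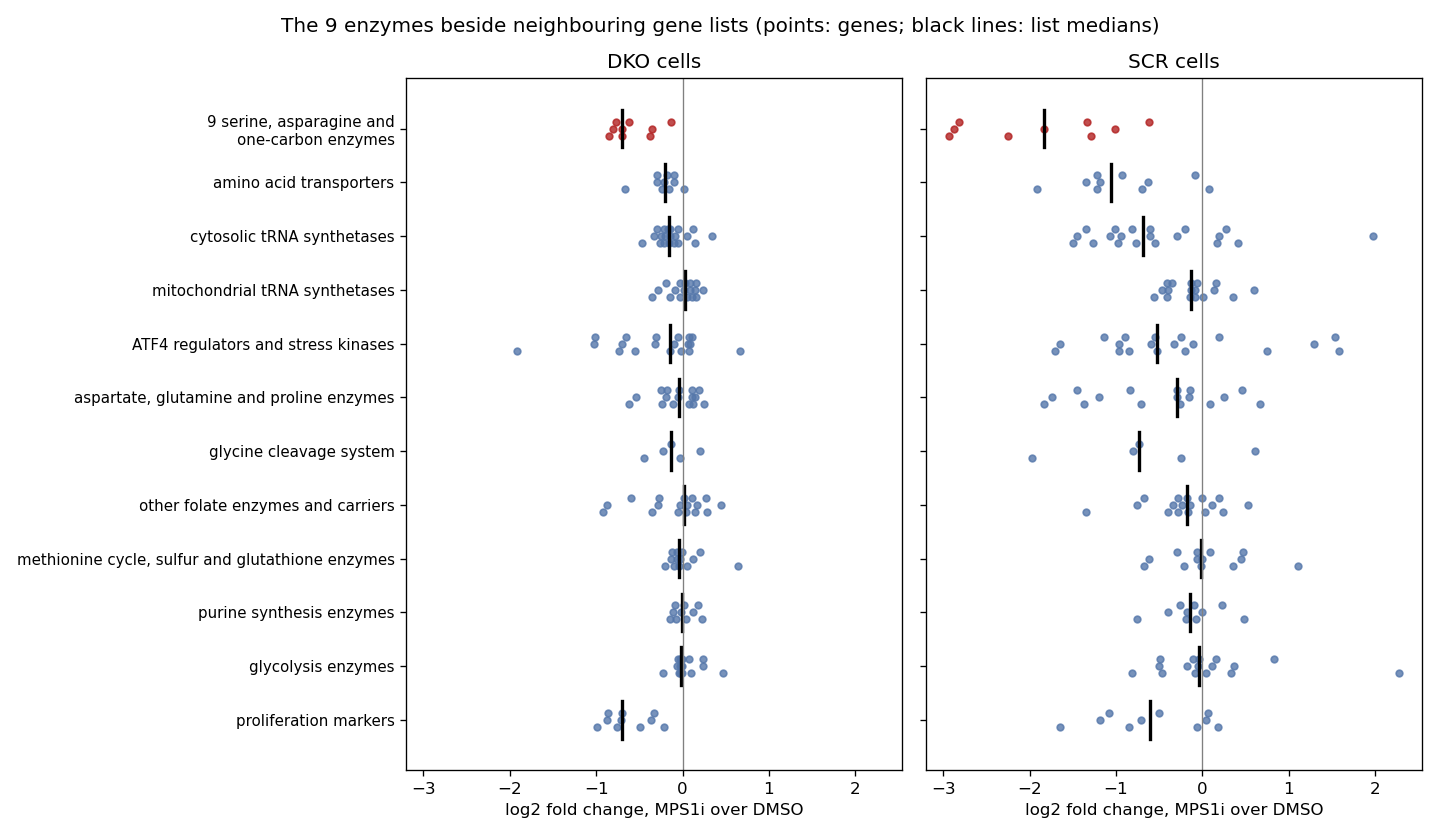
Log2 fold change of MPS1i over DMSO for the 9 enzymes (red) and for the genes of 11 neighbouring lists (blue) in DKO (left panel) and SCR cells (right panel), with a black line at each list's median. The red points lie left of 0 in both panels, with medians of -0.70 and -1.83, and the proliferation markers have medians of -0.70 and -0.61.

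Markers of cycling and of interferon response moved with the treatment as well. The summed CPM of 10 proliferation markers ran from 1198 to 1298 in the MPS1i libraries of all lines and from 1973 to 2304 in the DMSO libraries. Of these 10 markers, 10 fell in DKO-labelled cells (median -0.70) and 6 fell and 1 rose in SCR cells (median -0.61). The summed CPM of 10 interferon-stimulated genes was 5360 and 5352 in STING-labelled MPS1i libraries against 458 and 470 in DMSO libraries, and 7620 and 7582 against 1545 and 1434 in MAVS-labelled libraries. It was 392 and 402 in DKO-labelled MPS1i libraries against 326 and 334 in DMSO libraries, and 13904 and 13869 against 1169 and 1138 in SCR libraries. Of these genes 5 rose in DKO-labelled cells (median 0.50) and all 10 rose in SCR cells (median 3.87). All 10 also rose in STING-labelled cells (median 4.56) and in MAVS-labelled cells (median 2.65). The median rise was thus larger in STING-labelled than in SCR cells, while the median fall of the 9 enzymes was smaller there. The part of either marker set in the fall of the 9 transcripts was not tested. Of 10 markers of immune, stromal and endothelial cells 3 could be tested, with 0 of these higher in DKO-labelled cells and all 3 higher in SCR cells. The summed level of the 10 was 8.18 to 11.2 CPM in MPS1i and 4.52 to 7.66 CPM in DMSO libraries, and its part was not tested either. Of 8 lung epithelium markers 5 could be tested, with 1 higher and 0 lower in DKO-labelled and 2 higher and 1 lower in SCR cells. Of all tested genes 6.53% rose and 8.22% fell in DKO-labelled cells, and 26% rose and 24% fell in SCR cells. Counts of so few cell type markers are not read as a change in cell type.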

How the data were processed

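Per the labels' protocols, poly(A) RNA of 16 libraries was enriched, ribosomal RNA blocked and stranded libraries made. The authors deposited 1 table of unnormalized gene counts with a column for each library, with 0 columns left unmapped. Per the submitters' processing notes, Trim Galore, cutadapt, Trimmomatic, STAR and featureCounts were used with GRCh38/hg38. Versions, the strand setting and the treatment of reads mapping to several places are not given in the sources used here, so CBS with CBSL and ASNS with ASNSP1 may share reads.

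Fits used R 4.3.3 and edgeR 4.0.16. The filter filterByExpr (minimum count 10, minimum total 15) kept 17950 of 60612 genes, which held at least 99.93% of each library's counts. TMM normalization, robust dispersions and the two-sided quasi-likelihood F-test were applied to all 16 libraries in 1 model of 8 group means, with 8 residual degrees of freedom. There were 15 contrasts, 5 of them differences of treatment effects. Values of p were adjusted by Benjamini-Hochberg over all 17950 genes, and the threshold for a call was 0.05. Each standard error is |log2 fold change| over the root of its F. CPM use TMM-scaled totals of the kept genes. The fit was tested on simulated data. DESeq2 1.42.0, limma 3.58.1 (voom), other scalings and filters, thinned libraries, summed counts, a replicate block and leaving out each library were alternatives.

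Same-numbered replicates were not treated as pairs in the main fit. Their residual correlations over 28 pairs of groups ran from -0.158 to 0.230 with 4 above 0.1. Without a reference value for paired cultures, these correlations cannot decide whether replicates were paired. The members and lists were chosen with earlier results of these data known. Beside the 9 members, the text names up to 3 genes per list with the smallest adjusted p in SCR, up to 2 that went against their list, and the 8 genes most like the members. Some genes that this rule names are not reported here. Floors and counting error cover sampling of reads only.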

Additional observations from a re-analysis of the deposited data

Results flagged for a closer look

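The effect of MPS1i on the 9 enzyme transcripts differed between lines, by the test of the difference itself (edgeR quasi-likelihood test of the interaction term), in the instances below. In each, the fall after MPS1i was smaller in the line named first.

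For STING-labelled minus SCR cells, the difference of log2 fold changes was 1.08 for PHGDH, 1.25 for PSAT1, 0.63 for PSPH, 0.56 for SHMT2, 0.39 for MTHFD2, 0.98 for ASNS, 1.46 for CBS and 0.21 for CTH. For MAVS-labelled minus SCR cells it was 0.63 for PHGDH, 0.89 for PSAT1, 0.29 for SHMT2, 0.29 for MTHFD2, 0.89 for ASNS and 0.73 for CBS. For DKO-labelled minus SCR cells it was 1.55 for PHGDH, 2.10 for PSAT1, 0.94 for PSPH, 0.88 for SHMT2, 0.72 for MTHFD2, 1.02 for ALDH1L2, 1.97 for ASNS, 2.24 for CBS and 0.24 for CTH. The comparisons share the SCR libraries.

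DKO-labelled minus STING-labelled cells gave 0.47 for PHGDH, 0.85 for PSAT1, 0.32 for SHMT2, 0.33 for MTHFD2, 0.99 for ASNS and 0.78 for CBS. DKO-labelled minus MAVS-labelled cells gave 0.92 for PHGDH, 1.21 for PSAT1, 0.69 for PSPH, 0.59 for SHMT2, 0.43 for MTHFD2, 1.60 for ALDH1L2, 1.08 for ASNS and 1.51 for CBS. These share the DKO-labelled libraries. Some of these calls were lost in fits that left out 1 library. For MAVS-labelled minus SCR cells this held for SHMT2 in 11 of 16 such fits and for MTHFD2 in 2. CTH lost its call in 8 for STING-labelled minus SCR and in 1 for DKO-labelled minus SCR cells. ALDH1L2 lost it in 5 for DKO-labelled minus SCR, and SHMT2 in 7 for DKO-labelled minus STING-labelled cells. The values without those libraries are given above. With groups of 2 libraries, no single library could be tested as an outlier.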

How the results depend on the processing

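For the 9 members in 15 contrasts, 3446 of 3540 values under the alternatives kept their direction and side of the threshold, 75 lost a call, 14 gained one and 5 changed sign, 0 of which were called. In STING-labelled, MAVS-labelled and SCR cells all 9 members were lower after MPS1i under every alternative run. In DKO-labelled cells 6 of 9 were called with the DESeq2 Wald test or with only the compared groups, and 7 with voom or thinned libraries. Summing CBS with CBSL, or ASNS with ASNSP1 (chosen after seeing the data), changed no call. With the replicate number as a block, 1 call of a member changed, PSPH in MAVS-labelled against SCR cells after MPS1i (adjusted p = 0.0431), and in DKO-labelled cells 2666 genes were called for MPS1i, so the block moved counts little. Samples share only a number.

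The treatment effect in DKO-labelled cells was called for 2648 genes, or 1629 with only the compared groups. Without 1 library each, genes called ran from 1433 to 3120 for this effect, 3364 to 5843 for that in STING-labelled cells, 897 to 2625 for STING-labelled and 339 to 1735 for MAVS-labelled against SCR cells under DMSO, 1794 to 3348 for MAVS-labelled against SCR cells after MPS1i, 851 to 1754 for MAVS-labelled minus SCR and 535 to 1107 for DKO-labelled minus STING-labelled effects. Members called ran from 0 to 3 for MAVS-labelled against SCR cells under DMSO and from 4 to 8 after MPS1i. Each of these fits lacks 1 library, and for the effect in DKO-labelled cells the counts of genes lay on both sides of 2648. The cause of these ranges was not tested.

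Signs changed only for values that did not pass. For MAVS-labelled against SCR cells under DMSO, PSPH was -0.0248 in thinned libraries and ran from -0.0518 to 0.104 without 1 library each, and CTH ran from -0.000454 to 0.0841. ALDH1L2 for STING-labelled minus SCR effects ran from -0.0520 to 0.446 without 1 library each. In DKO-labelled cells, upper-quartile factors turned DLD (0.00046), LARS2 (0.00718) and PGAM1 (0.0133). Without 1 library each, the effect in DKO-labelled cells ran from -0.312 to 0.0811 for GCSH, -0.108 to 0.0370 for DLD, -0.0269 to 0.148 for PPP1R15A, -0.235 to 0.0459 for CARS2, -0.0202 to 0.0818 for AARS2, -0.111 to 0.00714 for GPI, -0.0572 to 0.189 for ATF3 and -0.650 to 1.29 for LYZ. Upper-quartile factors moved the share of higher genes among all called to 56.9% for MPS1i in DKO-labelled cells (44.3% with TMM), 60.3% for DKO-labelled against SCR cells after MPS1i (50.3%), 61.2% for STING-labelled against SCR cells under DMSO (46.2%) and 46.2% for DKO-labelled minus STING-labelled effects (32.9%). No direction of a called member turned under any scaling. Depth limits ALDH1L2 most, with 21 to 248 counts per library, and 2 libraries per group limit every value.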
